A study of Zea mays with 9 samples.

Results

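Under a common threshold, 202 maize genes were higher in root apexes after both nitrate and ammonium than without nitrogen. The members were taken from the 43484 Zm00001d gene models (identifiers of the fourth B73 annotation) among the 45260 identifiers of the expression table. A gene model was kept when its value was above 0 in all 3 conditions and its highest value was at least 5 RPKM (read number scaled to transcript length and to the mapped reads of the library), which left 15927 gene models. A gene was then called raised by both forms when the log2 ratio of nitrate to -N and the log2 ratio of ammonium to -N both exceeded 1, that is, when both values were more than 2 times the -N value. These thresholds were met by 210 gene models (1.32% of those kept), and 8 of them, among them the genes of ferredoxin--nitrite reductase and hemoglobin 1, were left out beforehand by name. The 2 ratios chose the members, so both are given below as a description with no test.

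The samples were primary root apexes of seedlings of the B73 inbred line, germinated for 3 days in the dark and then kept for 24 h in nutrient solution without nitrogen (-N), with 1 mM KNO3 (nitrate) or with 1 mM NH4Cl (ammonium). All groups, controls included, had first spent a period in nitrogen-free solution. Each condition had 3 biological replicates of pooled seedlings (10 to 15 plants by the record of the series), 9 libraries in all, and the apexes hold all cell types of the root tip together. Each gene has a single RPKM value per condition in the table, estimated by the authors over the replicates. The table carries no spread between replicates, no read depth and no p-value beside these values, and the study's own test results were not used here. A fold difference given below is therefore not shown to exceed the replicate error. In such bulk samples, fewer cells that express a gene and less RNA per cell cannot be told apart.

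Plants take up nitrate and ammonium through different transporters. Nitrate is reduced to nitrite in the cytosol and nitrite to ammonium in the plastid, the latter step with electrons from ferredoxin, which in roots receives them from NADPH through ferredoxin--NADP reductase. Ammonium from either source is then fixed into glutamine. Both ions also act as signals that alter gene expression in roots.

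Over the 202 members, the -N values ran from 0.124 to 210.3 RPKM with a median of 2.82. After nitrate they ran from 0.749 to 453.2 RPKM with a median of 8.44, and after ammonium from 1.13 to 1119 RPKM with a median of 10.2. The members were thus mostly genes of low level without nitrogen, since the median -N value of all 15927 genes kept was 17.7 RPKM. In -N, 20 members lay under 1 RPKM (9.90%), against 63 of all genes kept (0.396%). The filter has a part in this share, because a gene under 1 RPKM in -N could pass it only through a value of at least 5 RPKM in another condition.

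The log2 ratio of nitrate to -N had a median of 1.38 over the members and reached 6.65, and that of ammonium to -N had a median of 1.79 and reached 5.07. Both ratios exceeded 2 for 23 members and exceeded 3 for 3 members. At the other end, 45 members had a smaller ratio of at most 1.1, close to the threshold. Of all genes kept, 389 had a nitrate ratio above 1 (2.44%) and 1207 an ammonium ratio above 1 (7.58%), and their median ratios were 0.016 and 0.0078. The genes above both thresholds were 54.0% of the genes above 1 after nitrate and 17.4% of those above 1 after ammonium, counted before the 8 genes were left out. Both ratios have the same -N value below the line, so a -N estimate that is too low moves a gene upward in both.

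**Figure D1:**
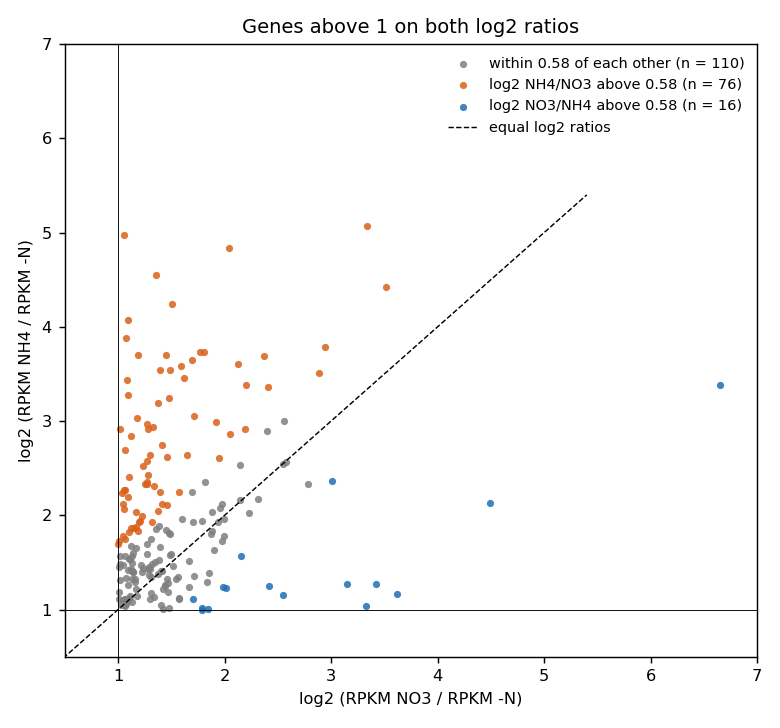
Log2 ratio of nitrate to -N (x axis) against log2 ratio of ammonium to -N (y axis) for the 202 members, 1 point per gene, with thin lines at the threshold of 1 and a dashed line of equal ratios. The 76 genes with ammonium higher lie above the dashed line up to 5.07, the 16 genes with nitrate higher lie below it out to 6.65, and the other 110 lie along it.

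The values after ammonium and after nitrate can be set against each other without -N. Ammonium was above nitrate in 145 members (71.8%) and below it in 57, with a median log2 ratio of ammonium to nitrate of 0.32. Over all 15927 genes kept, ammonium was above nitrate in 7855 (49.3%), with a median of -0.0081. For 110 members (54.5%) the nitrogen forms lay within 0.58 on the log2 scale, about 1.5-fold. Ammonium was higher by more than this in 76 members (37.6%) and nitrate in 16 (7.92%). Among all genes kept, 14.2% were higher after ammonium and 10.4% higher after nitrate by the same limit. These counts use the columns that chose the members, so the difference from the background is a description of the selected set.

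The 76 members with ammonium higher had median values of 2.42 RPKM without nitrogen, 6.30 with nitrate and 15.98 with ammonium. Their nitrate ratios were mostly modest (median 1.29) beside ammonium ratios of 1.70 to 5.07 (median 2.72). In the 16 members with nitrate higher the medians were 2.43 RPKM without nitrogen, 11.7 with nitrate and 5.56 with ammonium, with median log2 ratios of 2.48 and 1.23. For the 110 genes in between, the medians were 3.40, 8.72 and 9.26 RPKM in that order, with median log2 ratios of 1.35 and 1.44. These sets were split by the ratio of ammonium to nitrate, so which form stood higher, or that they lay close, follows from the split.

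**Figure D2:**
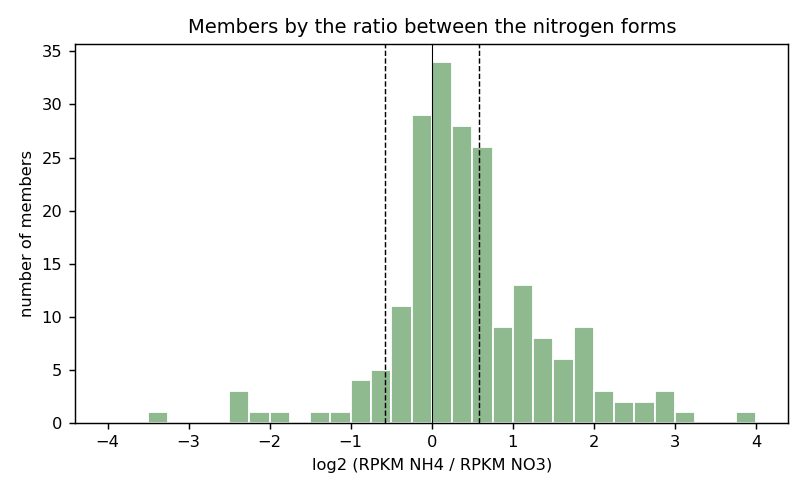
Number of members (y axis) by log2 ratio of ammonium to nitrate (x axis, bins of 0.25), with dashed lines at 0.58 to either side of 0. The distribution is centred slightly above 0 (median 0.32) and its arm on the ammonium side holds 76 genes against 16 on the nitrate side.

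Grouped by their -N level, the members had these ratios. The 20 members under 1 RPKM in -N had median log2 ratios of 2.46 after nitrate and 3.53 after ammonium. The 116 members from 1 to 5 RPKM had medians of 1.39 and 1.73, and the 55 members from 5 to 20 RPKM had 1.29 and 1.59. Only 11 members had 20 RPKM or more in -N, with medians of 1.13 and 1.73. The filter has a part in the large ratios of the lowest level, since a gene under 1 RPKM in -N passed it only if the larger of its log2 ratios was above 2.32. The smaller ratio was not bound in this way. At this level the nitrate ratios went down to 1.06 and the ammonium ratios to 1.03. Over the other 3 levels the ammonium medians followed no order. Expressed as a share of all genes kept at the same level, members made up 31.7% of the genes under 1 RPKM, 9.48% from 1 to 5, 0.746% from 5 to 20 and 0.151% above. The filter on the highest value fixes part of the order of these shares too, since genes of 1 to 5 RPKM in -N with no higher value elsewhere were not kept.

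A description was given for 29 of the 202 members in the gene lists of the study, and the other 173 carry an identifier alone. The annotation used here did not contain Zm00001d identifiers. The study drew these lists from genes it found changed in the same libraries, so the direction of a listed gene is not independent evidence, and the groups below were formed from the descriptions with earlier results of these data known. Of the 249 described genes, 212 passed the filter, 29 were members and 8 more were the genes left out beforehand. A further 107 were above 1 after ammonium alone and 12 after nitrate alone. In the study's list of 81 hormone-response genes of the clusters higher after both forms, 62 passed the filter, of which 26 were members, 3 were left out, 9 exceeded 1 with nitrate only, 9 with ammonium only and 15 with neither. The median ratios of the 62 genes were 1.06 after nitrate and 1.19 after ammonium. Many described members lay close to the threshold at low levels, and with 1 RPKM added to every value 12 of the 29 no longer had both ratios above 1.

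**Figure D3:**
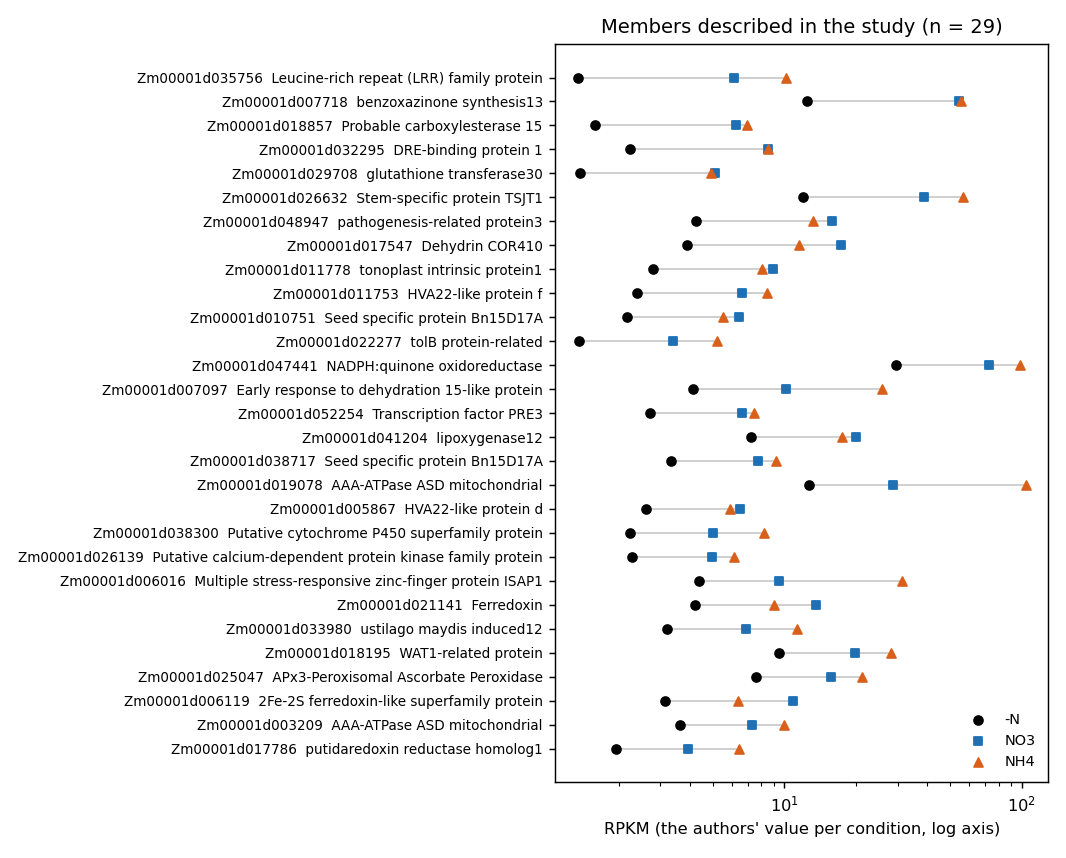
RPKM on a log axis (x axis) of the 29 described members with -N as black circles, nitrate as blue squares and ammonium as orange triangles, ordered from the largest to the smallest value of the smaller log2 ratio. In every gene the -N value is the lowest, as the rule requires. The values after both nitrogen forms lie within 0.58 on the log2 scale in 18 genes. Ammonium is higher by more than this in 8 genes and nitrate in 3. The widest gap is in AAA-ATPase ASD Zm00001d019078 (28.8 and 104.3 RPKM).

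The first group, put together here by hand, holds proteins that carry electrons and some of the described redox enzymes. The gene Zm00001d021141, described as a ferredoxin, had 4.18 RPKM without nitrogen, 13.6 with nitrate and 9.06 with ammonium, with log2 ratios of 1.70 and 1.12. The gene of a 2Fe-2S ferredoxin-like protein, Zm00001d006119, had 3.15, 10.9 and 6.39 RPKM in that order (1.79 and 1.02). Ferredoxins are small iron-sulfur proteins that hand single electrons to reductases such as nitrite reductase. Both genes stood higher after nitrate than after ammonium, by 0.59 and 0.77 on the log2 scale, and are 2 of the 3 described members on the nitrate side. The ferredoxin--NADP reductase of the root, Zm00001d034345, which reduces ferredoxin, was not a member, with 52.3 RPKM without nitrogen, 110.2 with nitrate and 83.7 with ammonium. Its nitrate ratio of 1.08 was above 1 and its ammonium ratio of 0.68 was not.

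The member of this group with the highest RPKM was the gene of an NADPH:quinone oxidoreductase, Zm00001d047441, an enzyme type that reduces quinones and so limits radical formation. It had 29.5 RPKM without nitrogen, 72.9 with nitrate and 98.8 with ammonium (1.31 and 1.75). Peroxisomal ascorbate peroxidase, which removes hydrogen peroxide with ascorbate, is listed as Zm00001d025047 and had 7.62, 15.8 and 21.2 RPKM in that order (1.05 and 1.47). The gene of a putidaredoxin reductase homolog, Zm00001d017786, had 1.95, 3.94 and 6.45 RPKM (1.01 and 1.72). These 3 genes were higher after ammonium than after nitrate, by 0.44, 0.42 and 0.71 on the log2 scale. The ferredoxin and ferredoxin-like members leaned the other way. The ferredoxin gene left out by name, Zm00001d038291, had nearly equal log2 ratios of 1.88 after nitrate and 1.77 after ammonium. Of 8 described genes of this group that passed the filter, 5 were members, 1 was left out, and 1 each was above 1 after nitrate alone and after ammonium alone. The last was the peroxisomal monodehydroascorbate reductase Zm00001d049954, which regenerates ascorbate, with 105.9 RPKM without nitrogen, 84.9 with nitrate and 220.1 with ammonium. Of the 5 members, 4 lost a ratio above 1 when 1 RPKM was added to every value. The ammonium ratios were then 0.96 for the ferredoxin and 0.83 for the ferredoxin-like protein, and the nitrate ratios were 0.96 for ascorbate peroxidase and 0.74 for the putidaredoxin reductase homolog. Outside the group, 2 further described genes of electron carriers were not members. The basic blue protein gene Zm00001d033711 had log2 ratios of 1.19 after nitrate and 0.68 after ammonium, and the cytochrome b6-f iron-sulfur subunit gene Zm00001d053432 had -0.63 and 3.85. Further described redox enzymes were not placed in the group. Among them are peroxidase genes that the study lists as lower after both forms, and a superoxide dismutase it lists as higher after ammonium. The share of members in the group therefore depends on the choice of genes.

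In the study's list for nitrogen transport and metabolism, 10 of 15 genes passed the filter and 4 of them met both thresholds, and all 4 are among the genes left out. Therefore none of the 202 members comes from this list. Of the other 6 genes, 2 exceeded 1 with nitrate only, 2 with ammonium only and 2 with neither. The gene of nitrate reductase 1, Zm00001d049995, the enzyme of the first reduction step, was under the filter with 0.291 RPKM without nitrogen, 1.77 with nitrate and 1.69 with ammonium.

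A second group formed by hand brings together described genes linked with abscisic acid or dehydration. Abscisic acid is the hormone of water shortage, and many of its targets encode hydrophilic proteins that protect membranes and enzymes. Of the 16 genes of this group, all passed the filter, 8 were members, 5 were above 1 after ammonium alone and 3 after neither. Their median log2 ratios were 1.05 after nitrate and 1.47 after ammonium. Over all 212 described genes that passed the filter, the medians were 0.46 and 1.36, and over all genes kept 0.016 and 0.0078. The group was picked from lists of changed genes, so its distance from all genes kept follows from the lists. The count depends on how the genes were grouped. In the study's own list of 23 genes for the response to water deprivation, 22 passed the filter, of which 2 were members, 19 had a ratio above 1 with ammonium only and 1 had none. Its median ratios were 0.33 after nitrate and 1.71 after ammonium. Its 2 members were Zm00001d007097 and Zm00001d006016, and the other 6 members of the group came from the hormone-response list.

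The dehydrin gene Zm00001d017547 (COR410), which encodes one of these hydrophilic proteins, had 3.89 RPKM without nitrogen, 17.3 with nitrate and 11.5 with ammonium, with log2 ratios of 2.16 and 1.57. It was the described member with the second largest nitrate ratio, after the leucine-rich repeat gene below. The transcription factor gene Zm00001d032295 (DRE-binding protein 1), of the family that binds the dehydration-responsive element, had 2.23 RPKM in -N and nearly equal values of 8.55 after nitrate and 8.50 after ammonium (1.94 and 1.93). A pair of HVA22-like genes, a family first described in barley as induced by abscisic acid, differed little. Zm00001d005867 (protein d) had 2.62, 6.48 and 5.91 RPKM in -N, nitrate and ammonium (1.31 and 1.17). Zm00001d011753 (protein f) had 2.39, 6.64 and 8.40 RPKM (1.48 and 1.82).

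Both genes described as seed specific protein Bn15D17A were members. They stand in the hormone-response list, and their description names no link to abscisic acid or dehydration. Without them the group held 6 members among 14 genes. Zm00001d010751 had 2.17 RPKM without nitrogen, 6.44 with nitrate and 5.52 with ammonium (1.57 and 1.35), and Zm00001d038717 had 3.31, 7.71 and 9.23 RPKM (1.22 and 1.48). The remaining 2 genes of the group leaned to ammonium. The gene of an early response to dehydration 15-like protein, Zm00001d007097, named for its induction by drought in Arabidopsis, had 4.13 RPKM without nitrogen, 10.2 with nitrate and 25.7 with ammonium (1.30 and 2.64). The stress-associated zinc-finger gene Zm00001d006016 (ISAP1), of a kind first described in rice, had 4.37, 9.48 and 31.4 RPKM (1.12 and 2.85). After ammonium these values were 2.53 and 3.31 times those after nitrate. With 1 RPKM added to every value, the nitrate ratio of ISAP1 was 0.96 and the ammonium ratio of HVA22-like protein d was 0.93, and the other 6 members kept both ratios above 1.

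Of the 3 genes grouped with jasmonate that passed the filter, 1 was a member, and of the 8 defence genes 2 were. Over all described genes that passed, 37 of 212 (17.5%) met both thresholds. Jasmonate and related oxylipins are made from fatty acids, first oxygenated by lipoxygenases, and TIFY proteins repress the response to the hormone. The lipoxygenase gene Zm00001d041204 (lipoxygenase12) had 7.24 RPKM without nitrogen, 20.01 with nitrate and 17.5 with ammonium (1.47 and 1.28). Its description does not say which oxylipin the enzyme makes, so its place with jasmonate rests on the grouping by hand. It was the only member among the 3 genes of this group that passed the filter. The other 2, both described as TIFY 10B, were above 1 after ammonium alone. Zm00001d022139 came close to the set, with 84.0, 164.6 and 300.9 RPKM in -N, nitrate and ammonium and log2 ratios of 0.97 and 1.84. The TIFY 10B genes Zm00001d005813 (2.30 and 1.40) and Zm00001d027900 (1.84 and 2.79) exceeded 1 on both ratios but lay under the filter.

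Among the 8 defence genes that passed the filter, 2 were members, 5 were above 1 after ammonium alone and 1 after neither. The pathogenesis-related protein3 gene Zm00001d048947, of a family of chitinases that attack fungal cell walls, had 4.25 RPKM without nitrogen, 15.9 with nitrate and 13.2 with ammonium (1.90 and 1.63). Zm00001d033980 (ustilago maydis induced12), named for its induction by the maize smut fungus, had 3.19, 6.86 and 11.3 RPKM (1.104 and 1.82). The median ratios of the 8 genes were 0.56 after nitrate and 1.79 after ammonium. The listed defence genes under the filter all exceeded 1 on both ratios, so the filter lowered the number of members. They were DMR6-like oxygenase 2 (2.40 and 2.06), PAD4 (1.38 and 1.00), chitinase B1 (2.04 and 3.38) and a hevein-like gene (1.64 and 1.61). The gene Zm00001d035756 of a leucine-rich repeat protein, a protein type with many receptors among its members, had 1.35 RPKM without nitrogen, 6.14 with nitrate and 10.2 with ammonium. Its log2 ratios of 2.19 and 2.92 made it the described member with the largest smaller ratio.

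Enzymes of specialised metabolism and detoxification were members in single cases. The gene benzoxazinone synthesis13, Zm00001d007718, encodes a dioxygenase of the benzoxazinoid pathway, whose products defend young maize tissue against insects and fungi. It had 12.4 RPKM without nitrogen, 54.6 with nitrate and 55.5 with ammonium, so that it was more than 4 times higher after each form (2.14 and 2.16) and the values of the forms differed by 0.023 on the log2 scale. A cytochrome P450 gene, Zm00001d038300, of the large family of monooxygenases, had 2.23, 5.01 and 8.17 RPKM (1.17 and 1.87). Together with 5 glycosyltransferase and cytochrome P450 genes these 2 members form the described group that passed the filter. The other 5 were all above 1 after ammonium alone, and 3 of them were below -1 after nitrate.

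Glutathione transferases attach glutathione to reactive or foreign compounds. Of 8 described genes, all passed the filter, 1 was a member, 5 were above 1 after ammonium alone and 2 after neither. The member, glutathione transferase30 (Zm00001d029708), had 1.38 RPKM without nitrogen, 5.08 with nitrate and 4.91 with ammonium (1.88 and 1.84). It had the lowest -N value of the 8. Glutathione transferase7 (Zm00001d042104) missed the threshold by the smallest margin of all genes kept, with 3.05, 6.09 and 8.34 RPKM and ratios of 0.9988 and 1.45.

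**Figure D4:**
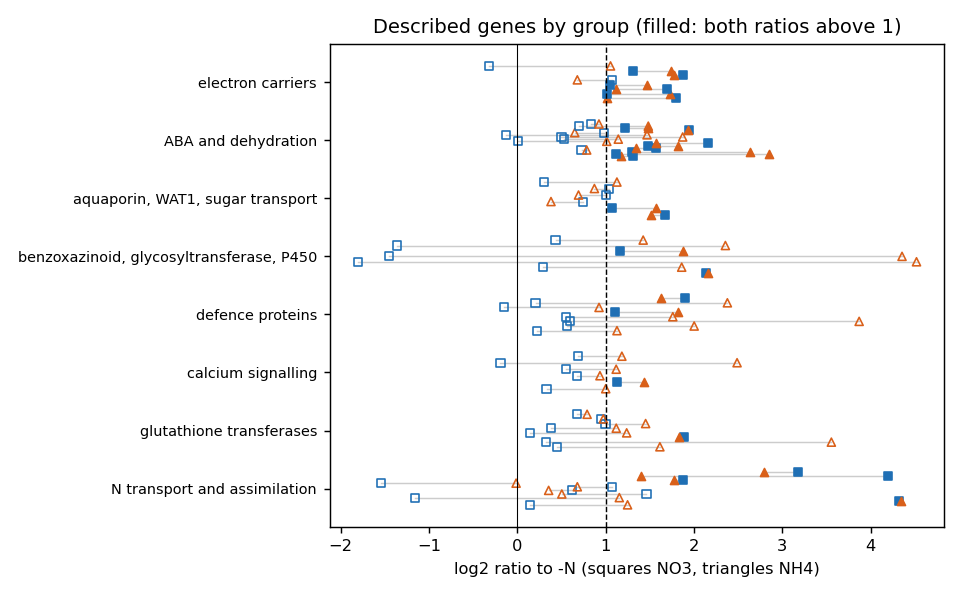
Log2 ratios to -N (x axis) of the described genes that passed the filter, by group, with nitrate as blue squares, ammonium as orange triangles, a line joining the values of a gene and a dashed line at the threshold of 1. Filled symbols mark genes with both ratios above 1, which are 6 of 8 electron carriers and redox enzymes and 8 of 16 genes of abscisic acid and dehydration but 1 of 8 glutathione transferases, beside 37 of all 212 described genes (17.5%) and 1.32% of all genes kept. Groups were formed by hand, and filled symbols include the genes left out of the members. The electron carriers and redox enzymes do not include the study's peroxidases that were lower after both forms.

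In transport, 2 genes were members. The tonoplast intrinsic protein1 gene Zm00001d011778 encodes an aquaporin, a water channel of the vacuole membrane, and had 2.80 RPKM without nitrogen, 8.91 with nitrate and 8.01 with ammonium (1.67 and 1.51). A WAT1-related gene, Zm00001d018195, whose Arabidopsis namesake exports auxin from the vacuole, had 9.48, 19.9 and 28.1 RPKM (1.07 and 1.57). The other 2 described WAT1-related genes were just above 1 after nitrate and below 1 after ammonium. Zm00001d033284 had log2 ratios of 1.00 and 0.69, and Zm00001d036440 had 1.04 and 0.87.

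In signalling and gene regulation, the calcium-dependent protein kinase gene Zm00001d026139, of a family that senses calcium, had 2.28 RPKM without nitrogen, 4.97 with nitrate and 6.15 with ammonium (1.12 and 1.43). Among the 6 described genes of calcium signalling it was the only member, and 4 were above 1 after ammonium alone. The gene of transcription factor PRE3, Zm00001d052254, whose Arabidopsis relatives promote cell elongation, had 2.72, 6.64 and 7.45 RPKM (1.29 and 1.46).

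A further set of described members have enzymatic or less well defined functions. The probable carboxylesterase 15, Zm00001d018857, belongs to enzymes that split ester bonds and had 1.60 RPKM without nitrogen, 6.27 with nitrate and 6.93 with ammonium (1.97 and 2.12). The gene of a stem-specific protein TSJT1, Zm00001d026632, had 11.9, 38.6 and 56.7 RPKM (1.69 and 2.25). For the tolB protein-related gene Zm00001d022277 the values were 1.37, 3.40 and 5.21 RPKM (1.32 and 1.93). Both described AAA-ATPases of the ASD type, mitochondrial proteins that use ATP to remodel other proteins, were members. Zm00001d003209 had 3.62, 7.31 and 9.91 RPKM (1.01 and 1.45), while Zm00001d019078 had 12.7, 28.8 and 104.3 RPKM (1.18 and 3.03). The latter had the largest ammonium ratio of the 29 described members and was 3.62 times higher after ammonium than after nitrate.

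The members with the largest ratios carry no description. By the smaller ratio, Zm00001d027742 came first, with 0.250 RPKM without nitrogen, 2.86 with nitrate and 5.37 with ammonium (3.51 and 4.42). Zm00001d045843 had 0.124, 12.5 and 1.29 RPKM (6.65 and 3.38), and Zm00001d040292 had 0.276, 2.78 and 9.27 RPKM (3.33 and 5.07). The largest nitrate ratio and the largest ammonium ratio of the set belong to the last pair. All 3 values in -N were under 0.3 RPKM, and the error of such low values is not known.

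Next in this order stood 4 genes whose -N values were also under 1 RPKM. Zm00001d017622 had 0.393 RPKM without nitrogen, 3.03 with nitrate and 5.42 with ammonium, and Zm00001d022965 had 0.814, 6.02 and 9.29 RPKM. Zm00001d020492 had 0.932, 5.57 and 5.52 RPKM, and Zm00001d003273 had 0.968, 5.69 and 7.75 RPKM. The smaller log2 ratios of these 4 genes ran from 2.56 to 2.94. The other 3 of the first 10 were above 1 RPKM in -N. Zm00001d052164 went from 1.11 RPKM to 6.52 after nitrate and 6.47 after ammonium, Zm00001d040501 from 2.58 to 13.7 and 26.4, and Zm00001d051473 from 1.804 to 9.51 and 13.4. Zm00001d020492 and Zm00001d052164 had almost the same value after both forms, differing by 0.014 and 0.0093 on the log2 scale.

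The members that leaned farthest to one form met the other threshold by various margins. After nitrate, Zm00001d045843 was 9.65 times higher than after ammonium. Zm00001d025654 had 2.67 RPKM without nitrogen, 32.7 with nitrate and 5.99 with ammonium (3.62 and 1.17), and Zm00001d024802 had 0.257, 5.80 and 1.13 RPKM (4.50 and 2.13). Zm00001d036066 had 0.677, 6.80 and 1.39 RPKM (3.33 and 1.03), and Zm00001d010616 had 0.555, 5.95 and 1.34 RPKM (3.42 and 1.27). In 4 of these 5 genes the value after ammonium was between 1.13 and 1.39 RPKM, so that the ammonium ratio rests on a pair of low values.

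On the ammonium side, Zm00001d001491 had 0.386 RPKM without nitrogen, 0.804 with nitrate and 12.1 with ammonium (1.06 and 4.97), and Zm00001d044999 had 0.292, 0.749 and 6.84 RPKM (1.36 and 4.55). In both, the value after nitrate was under 1 RPKM. The other 3 genes stood at higher levels. Zm00001d037656 had 8.22, 17.6 and 138.0 RPKM (1.097 and 4.07), Zm00001d020702 had 1.55, 3.25 and 22.9 RPKM (1.07 and 3.89), and Zm00001d046055 had 2.81, 11.6 and 80.7 RPKM (2.04 and 4.84). Of these 5 genes, only Zm00001d046055 had a nitrate ratio above 2.

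**Figure D5:**
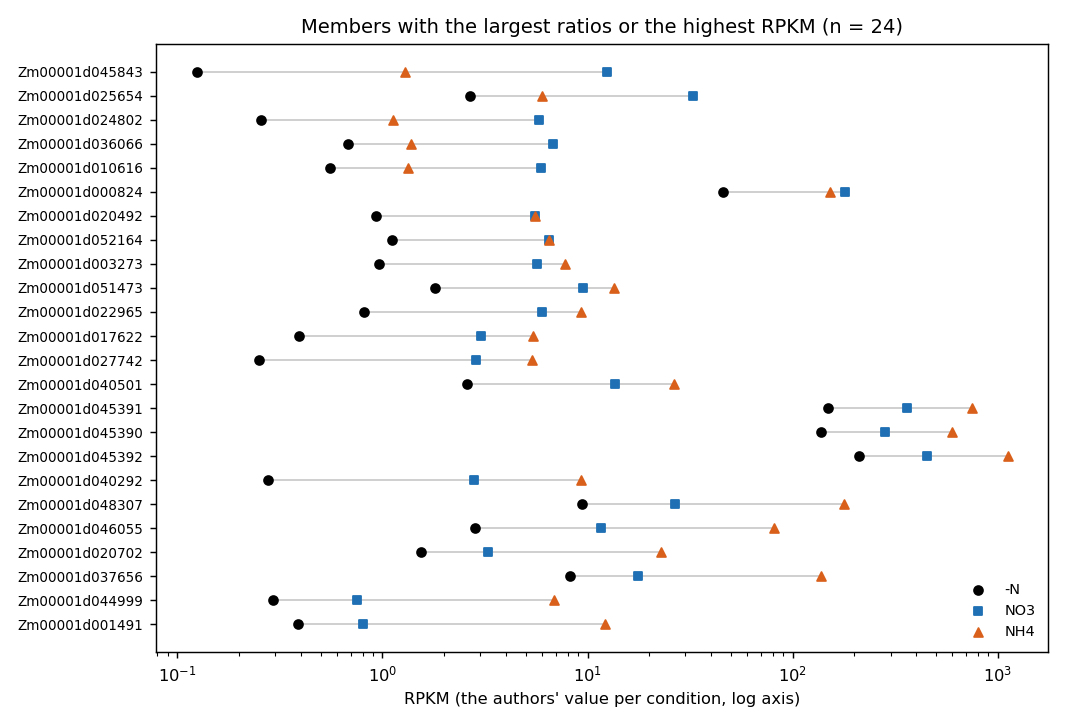
RPKM on a log axis (x axis) of the 24 members with the largest smaller ratios, the widest differences between the nitrogen forms or the highest RPKM, with -N as black circles, nitrate as blue squares and ammonium as orange triangles, ordered from nitrate higher at the top to ammonium higher at the bottom. Zm00001d045843 at the top spans 0.124 to 12.5 RPKM, and Zm00001d045392 reaches 1119 RPKM.

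The highest RPKM values came from 3 members with consecutive identifiers. Zm00001d045390 had 136.8 RPKM without nitrogen, 282.0 with nitrate and 597.1 with ammonium (1.04 and 2.13). Zm00001d045391 had 148.7, 360.2 and 748.6 RPKM (1.28 and 2.33), and Zm00001d045392 had 210.3, 453.2 and 1119 RPKM (1.11 and 2.41). All 3 were about 2 times higher after ammonium than after nitrate (log2 1.06 to 1.30). The next identifier on one side, Zm00001d045389, had 50.8, 43.7 and 31.6 RPKM, and on the other side Zm00001d045393 had 8.35, 8.12 and 15.96 RPKM, so neither was higher after nitrate. Together the 3 genes held 29.4% of the members' summed RPKM without nitrogen, 24.8% with nitrate and 34.1% with ammonium. The summed RPKM of all 202 members was 0.190% of the table's total without nitrogen, 0.483% with nitrate and 0.777% with ammonium. Should these 3 genes be close copies, the weighting of multiply mapped reads would have divided reads among them, which was not tested.

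Also high were Zm00001d000824, with 45.9 RPKM without nitrogen, 180.1 with nitrate and 152.4 with ammonium (1.97 and 1.73), and Zm00001d048307, with 9.36, 26.7 and 176.9 RPKM (1.51 and 4.24). The first has its next identifier in the set as well. Zm00001d000825 had 9.35, 46.5 and 42.1 RPKM, with log2 ratios of 2.31 and 2.17, and both genes stood slightly higher after nitrate.

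Members with close identifiers occurred in 8 pairs that were at most 5 numbers apart and held 14 genes. Gene-model numbers mostly follow position, but no coordinates were used here. A member with another member at the next number was found in 7 cases (3.47% of the members), among them the run Zm00001d045390 to Zm00001d045392. Of all 15927 genes kept, 130 that were no members also stood 1 number from a member. Whether members cluster was not tested. The pair Zm00001d002520 and Zm00001d002521 had -N values of 4.26 and 5.34 RPKM, 10.5 and 13.1 after nitrate and 9.21 and 13.8 after ammonium. The members Zm00001d028814 (39.4, 86.2 and 116.7 RPKM in -N, nitrate and ammonium) and Zm00001d028816 (1.60, 4.82 and 19.2 RPKM) stand on either side of Zm00001d028815. The latter is described as pathogenesis-related protein 10 and had 24.7, 36.3 and 83.6 RPKM, with log2 ratios of 0.56 and 1.76. Of the 130 genes kept that were 1 number from a member and no members themselves, 6 were above 1 after nitrate (4.62%) and 17 after ammonium (13.1%), where the shares over all genes kept were 2.44% and 7.58%. Zm00001d020136 (log2 ratios 1.01 and 1.85) and Zm00001d038718 (4.19 and 1.41) are among the 130. They met both thresholds and were left out by name, so they raise both counts.

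Compared with the genes above 1 after a single form, the members had the lowest -N levels. The 179 genes above 1 after nitrate alone had a median of 4.15 RPKM in -N, and the 997 genes above 1 after ammonium alone had 8.004 RPKM, against 2.82 in the members. The members also had the larger ratio for the form in common. Their median nitrate ratio of 1.38 compares with 1.28 in the genes of nitrate alone, and their median ammonium ratio of 1.79 with 1.41 in the genes of ammonium alone. For the form that did not pass the threshold, the median ratios were 0.48 after ammonium in the first set and 0.24 after nitrate in the second. All 3 sets are defined by the same ratios, so these values are descriptions.

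The threshold of 1 divides a continuous range. Just inside were Zm00001d031412, with 8.06 RPKM without nitrogen, 27.9 with nitrate and 16.1 with ammonium (ammonium ratio 1.00), Zm00001d001516, with 17.3, 34.6 and 56.3 RPKM (nitrate ratio 1.00), and Zm00001d042257, with 2.39, 4.81 and 5.44 RPKM (nitrate ratio 1.01). Just outside, besides glutathione transferase7, were Zm00001d039496, with 8.27, 20.9 and 16.5 RPKM (ammonium ratio 0.9967), and Zm00001d002898, with 25.6, 92.4 and 51.0 RPKM (ammonium ratio 0.9949). Lowering both thresholds to 0.58 gave 630 genes in place of 202, and adding 1 RPKM to all values before taking ratios left 116.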

How the data were processed

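The deposited values are RPKM, which the authors computed with Cuffdiff from the replicates of each condition, giving a single column per treatment. Per the labels and the methods of the study, reads were called with CASAVA 1.8, trimmed with Trimmomatic 0.33 and mapped with TopHat2 2.0.13 to B73 RefGen_v4, alignments of mapping quality under 1 were removed with Samtools, and Cufflinks 2.2.1 was run with correction for multiply mapping reads and quartile normalization between libraries. Quartile scaling can move all values a little, and the correction divides reads between similar genes.

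Log2 ratios were taken without a pseudocount. The filter was a highest value of at least 5 RPKM with all 3 values above 0, and the threshold was 1 on both log2 ratios. Neither counts nor replicate values were used here, so no test was run and no interval was computed, and the table does not give the read depth behind its values. The members and the gene lists were chosen, and the groups of described genes put together by hand, with earlier results of these data known. Genes named are the described members, the 10 with the largest smaller ratio, the 5 leaning farthest to each form, the 5 of highest RPKM, and the 3 nearest genes on each side of the threshold. Neighbours by identifier are named where members stand within 5 numbers, and described non-members and the genes listed at 0 were chosen after their values were seen. The annotation at hand (NAM 5.0) matched no identifier, so names came from the study's descriptions and planned promoter motifs were not searched. Alternatives were pseudocounts, filters, scalings and thresholds. The selection code was run on simulated data with effects well above the threshold and little noise. That run does not show how genes near the threshold or at low levels behave. Python 3.11.15, numpy 2.4.6, pandas 2.3.3 and matplotlib 3.10.9 were used.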

Additional observations from a re-analysis of the deposited data

How the results depend on the processing

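No paired analysis was possible because only a single value was given for each condition, and for the same reason no replicate could be left out. The table's lack of replicate values limits every ratio, most of all those on -N values under 1 RPKM. With 1 RPKM added to all values, 116 genes remained of the 202, the median ammonium ratio was 1.67, and 40 genes were higher after ammonium and 3 after nitrate by 0.58. Without a filter on the highest value the set had 1349 genes (median nitrate ratio 1.74; 349 higher after ammonium, 265 after nitrate), with a minimum of 1 RPKM 535 genes (1.49; 176 and 84), and with 10 RPKM 110 genes (49 and 9). A threshold of 0.58 gave 630 genes, median ratios of 0.91 after nitrate and 1.247 after ammonium, and 212 and 48 genes on the ammonium and nitrate sides. A threshold of 2 gave 23 genes, medians of 2.41 and 2.92, and 11 and 3 genes. Filters and thresholds act through the genes they admit, whereas a pseudocount shrinks the ratios themselves. Of the 29 described members, 12 lost a ratio above 1 with 1 RPKM added (4 of 5 electron carriers and redox enzymes, HVA22-like protein d, ISAP1, the WAT1-related, tolB-related, calcium-dependent kinase, cytochrome P450 and ustilago maydis induced12 genes, and AAA-ATPase Zm00001d003209), and 3 with 0.1 RPKM added. A pseudocount of 0.1 kept 187 of the 202 genes, and the 3 rescalings of the columns kept 194 (median ratio of 0), 179 (same total) and 195 (same upper quartile, with 10 genes gained). A constant added to every value cannot change the sign of a log2 ratio, so the sign is no check under the pseudocounts. Over the ratios of the 59 named genes, the largest shift was 3.07 under a pseudocount of 1 and 0.0695 under the rescalings.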

Other observations

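The rule passes over genes listed at 0 in -N, for which no ratio exists. There were 5 such genes with a highest value of at least 5 RPKM and values above 0 after both forms, all chosen here after their values were seen. Zm00001d029966 was listed at 8.24 RPKM after nitrate and 13.4 after ammonium, and Zm00001d016401 at 2.91 and 13.01 RPKM. Zm00001d049061 had 1.08 and 10.6 RPKM, and Zm00001d014494 had 0.485 and 5.87 RPKM. Zm00001d037894 leaned the other way, with 13.6 RPKM after nitrate and 0.0796 after ammonium. A value of 0 can be a failed estimate as well as an absent transcript, which was not tested.

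A further 1147 gene models met both thresholds with a highest value under 5 RPKM and were left aside. Of the study's 81 hormone-response genes higher after both forms, 19 were under this filter, all with values above 0 in every condition. Among them, the hevein-like gene Zm00001d048950, which stands 3 identifiers from the member Zm00001d048947 and belongs to a family of chitin-binding proteins, had 1.33 RPKM without nitrogen, 4.14 with nitrate and 4.08 with ammonium (log2 ratios 1.64 and 1.61). The gene of the transcription factor SOMBRERO, which in Arabidopsis controls root-cap cells, Zm00001d016119, had 1.17, 4.77 and 2.84 RPKM (2.02 and 1.28), and auxin response factor 2, Zm00001d041056, had 0.529, 2.11 and 1.30 RPKM (1.997 and 1.30). These 3 genes were chosen after their values were seen.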
